A study of Homo sapiens with 18 samples.

Results

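The genes described here write, copy, erase and read DNA methylation: the methyltransferases DNMT1, DNMT3A and DNMT3B, the DNMT1 partner UHRF1, the methylcytosine dioxygenases TET1, TET2 and TET3, and the methyl-CpG binding domain proteins MBD1, MBD2 and MBD3. These 10 genes were found among 60612 rows of the gene count matrix by matching Ensembl IDs to symbols. The study sequenced polyadenylated RNA from human cell lines transfected with 1 of 2 plasmids: a control plasmid encoding the green fluorescent protein mNeonGreen, and a plasmid that encodes mNeonGreen together with a miRNA named EXACT1. Described here are 12 of its 18 libraries, in 4 groups of 3: HepG2 control, HepG2 EXACT1, SH-SY5Y control and SH-SY5Y EXACT1. HepG2, a hepatocellular carcinoma line, received 100 ng of plasmid per well by lipid transfection. SH-SY5Y, a neuroblastoma line, was nucleofected, and the labels give no plasmid amount for it. Every library thus comes from transfected cells of 1 established line, and no untransfected cells were analysed here. Because transfection differed with the line, line and method cannot be told apart in any comparison between lines.

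Methylation of cytosine in CpG dinucleotides is set in new places mainly by DNMT3A and DNMT3B. DNMT1 copies it to the daughter strand at replication, guided by UHRF1, which binds hemimethylated DNA. TET enzymes oxidise 5-methylcytosine and so start its removal. MBD1 and MBD2 bind methylated CpG, whereas MBD3, the MBD2 paralog in the nucleosome remodelling and deacetylase complex NuRD, binds it poorly in mammals. Neurons and their precursors are known for abundant DNMT3A and TET3, and stem and germ cells for TET1 and DNMT3B.

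Promoter sequences are shown for the genes on which the comparison of the lines turns, the maintenance pair DNMT1 and UHRF1, which were both lower in HepG2, and TET1 and TET3, the leading TET transcripts of HepG2 and of SH-SY5Y. Each runs 5' to 3' from 200 bases before to 20 bases after a transcript start of RefSeq (build GRCh38.p14), in lower case. Capitals mark a word of the E2F type, E2F being the factor family that drives genes of DNA synthesis. The words searched, on both strands, were TTTCCCGC, TTTCGCGC, TTTGCCGC and TTTGGCGC, which share letters but were counted as separate matches.
DNMT1, chr19:10194934-10195153, minus strand: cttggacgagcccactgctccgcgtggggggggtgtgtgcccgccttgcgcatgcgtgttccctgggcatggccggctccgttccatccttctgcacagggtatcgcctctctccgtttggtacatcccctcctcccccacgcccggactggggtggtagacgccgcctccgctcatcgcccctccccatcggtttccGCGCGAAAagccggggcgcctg
UHRF1, chr19:4909301-4909520, plus strand: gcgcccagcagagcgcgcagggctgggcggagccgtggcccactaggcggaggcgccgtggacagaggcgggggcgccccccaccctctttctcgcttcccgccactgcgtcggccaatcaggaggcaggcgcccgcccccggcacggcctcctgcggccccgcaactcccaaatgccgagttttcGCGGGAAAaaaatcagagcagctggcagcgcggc
TET1, chr10:68560137-68560356, plus strand: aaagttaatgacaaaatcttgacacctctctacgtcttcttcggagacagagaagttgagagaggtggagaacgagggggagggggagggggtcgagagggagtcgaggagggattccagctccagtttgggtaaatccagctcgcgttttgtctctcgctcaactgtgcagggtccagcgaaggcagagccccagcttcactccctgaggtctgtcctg
TET3, chr2:73984710-73984929, plus strand: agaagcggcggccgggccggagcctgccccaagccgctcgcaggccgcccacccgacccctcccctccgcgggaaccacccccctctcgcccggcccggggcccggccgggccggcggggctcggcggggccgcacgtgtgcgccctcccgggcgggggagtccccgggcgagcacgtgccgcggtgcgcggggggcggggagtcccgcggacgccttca

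Counted over windows of 300 bases, 250 before the start and 50 after it, such a word was present in 2 of the 10 genes, DNMT1 and UHRF1, and in 3 of their 21 windows. In DNMT1 it was TTTCGCGC on the strand opposite to the gene, at 2 bases before the start, so the sequence above shows its reverse complement. UHRF1 held TTTCCCGC, also opposite to the gene, 14 bases before the start printed above, and TTTCGCGC on its own strand 160 bases before another start. Among all 35116 windows 3.31% held a word, as did 3.99% of 27305 genes. Of 28 DNA replication genes with a window, 16 held a word (57.1%). These are matches of letters, not sites shown to be bound. The same windows differed in CpG content. The single DNMT3B window had 3 CpG and the 3 TET1 windows 6, 10 and 11, against a median of 14 over all windows, while the 2 TET3 windows had 33 and 45, the MBD3 window 40 and the 3 UHRF1 windows 36 to 46. The DNMT3B window (chr20:32779602-32779901) and the TET1 windows with 6 and 11 CpG lie inside their genes, downstream of the annotated gene start. The DNMT3B gene start (chr20:32762385) was neither searched for words nor counted for CpG.

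Library totals were 70897097 to 77100150 counts in HepG2 and 66056962 to 72587614 in SH-SY5Y. Every member was counted in every library, the lowest value being 99 counts (TET2 in HepG2 EXACT1 replicate 1). Of 20 hepatocyte markers 19 had a mean level of at least 1 CPM (counts scaled to a common library size) in HepG2, CYP2E1 being the exception (0.090 CPM). Of 20 sympathetic neuroblast markers 16 did in SH-SY5Y, where TH (0.125), SLC18A2 (0.305), INSM1 (0.037) and PRPH (0.979 CPM) lay lower. At the same level SH-SY5Y also held 15 of the hepatocyte markers, summing to 196 to 277 CPM against 134200 to 215300 in HepG2. HepG2 held 6 of the neuroblast markers, summing to 182 to 422 CPM against 5358 to 9418 in SH-SY5Y. SH-SY5Y libraries also held 8 of 10 fibroblast markers at 1 CPM or more, summing to 332 to 414 CPM against 11.5 to 21.1 in HepG2, and the part of this in the line differences was not tested. Among the 12 libraries, replicate 1 of HepG2 EXACT1 stood apart, and so did replicate 2 of the SH-SY5Y controls. A list of 34 ribosomal protein genes took 5.43% and 7.34% of their counts, against 2.37% to 2.44% in the other HepG2 and 2.84% to 3.06% in the other SH-SY5Y libraries. Line differences are given below with all 6 libraries of a run and again without its outlying library.

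Levels were compared between genes as CPM per kilobase of exon, a gene's length being the union of its annotated exons. The CPM were relative to library sizes scaled by the trimmed mean of M values (TMM). Without the outlying library, HepG2 had TET1 at the top (8.38 ± 0.22 CPM per kb, SD, n = 5), then DNMT1 (7.76 ± 0.44) and MBD3 (7.30 ± 0.28), whose neighbouring ranges overlapped. MBD2 (5.28), UHRF1 (5.03), MBD1 (4.02) and DNMT3A (3.61) followed, each overlapping the next, and below them DNMT3B (2.99), TET3 (1.84) and TET2 (0.795) were each separate. In SH-SY5Y without its outlying library, DNMT1 (22.4 ± 1.8 CPM per kb, n = 5) and UHRF1 (21.8 ± 1.6) overlapped at the top. Below them MBD3 (17.4), DNMT3A (11.5), MBD1 (9.12), TET3 (5.77), MBD2 (4.28) and DNMT3B (2.47) formed a descending order with no overlap between neighbours, and TET2 (1.64) and TET1 (1.42) overlapped at the bottom. By this length TET1 was therefore first of 10 in HepG2 and last in SH-SY5Y. The order depended on the length used. Per kilobase of the longest transcript, TET1 (8.06 to 8.68) lay below DNMT1 (12.9 to 14.9) and MBD3 (9.81 to 10.9) in these HepG2 libraries. In SH-SY5Y, DNMT1 (36.6 to 44.7) was then separate from UHRF1 (23.6 to 28.1), which overlapped MBD3 (22.8 to 26.3). TET1 stayed last in SH-SY5Y. By the union of exons and with all 6 libraries, MBD3 had the highest mean in both lines (10.9 ± 8.9 and 26.5 ± 22.1 CPM per kb). The outlying library held the highest MBD3 value in each line.

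**Figure D1:**
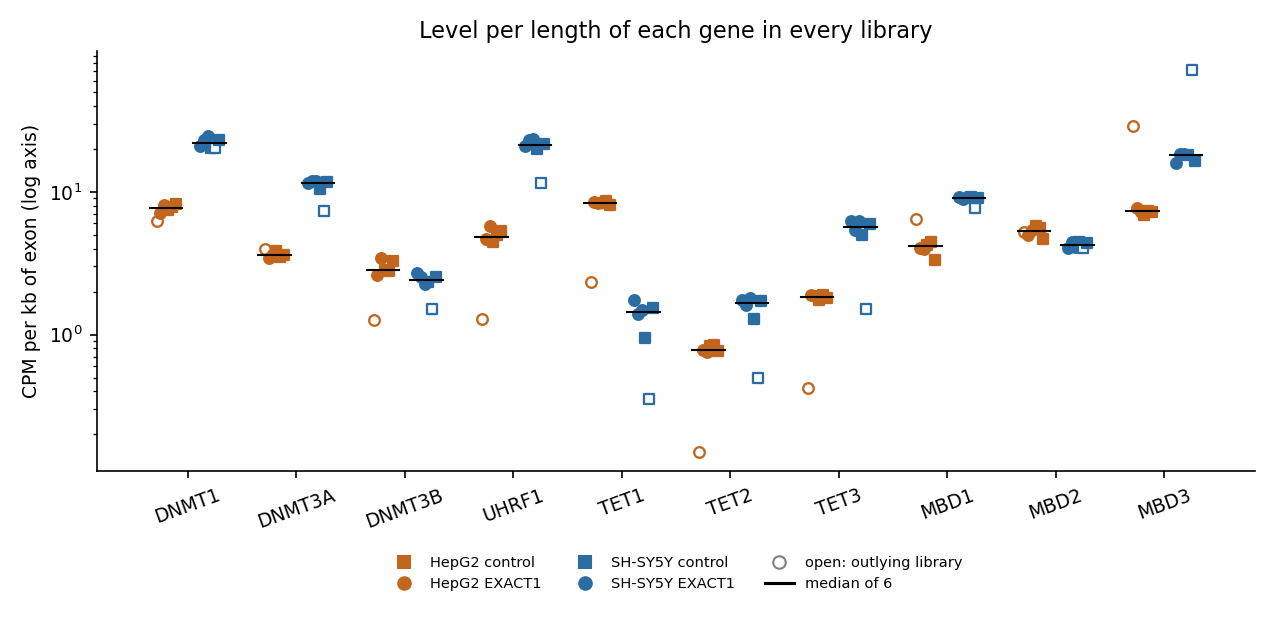
Level per length (CPM per kb of exon, log axis) of the 10 genes in 6 HepG2 and 6 SH-SY5Y libraries; squares are control, circles EXACT1, open symbols the 2 outlying libraries, and bars the median of 6. TET1 is the member with the largest gap in favour of HepG2, and its outlying HepG2 library (2.34) still lies above every SH-SY5Y library (0.356 to 1.74).

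The comparison of HepG2 with SH-SY5Y was run separately for each plasmid, so the 2 runs share no library. Genes were called at an adjusted p under 0.05 in edgeR's quasi-likelihood test (Benjamini-Hochberg over all tested genes), and log2 fold changes are HepG2 over SH-SY5Y. With the control plasmid 1 member was called higher in HepG2 (TET1) and 5 lower (DNMT1, UHRF1, DNMT3A, MBD1 and MBD3), where 23.2% of 19775 tested genes were called higher and 30.0% lower. With the EXACT1 plasmid TET1 was again the member called higher, and DNMT1, UHRF1, DNMT3A, TET3 and MBD1 were called lower, against 24.3% and 28.1% of 20105 genes. The median log2 fold change of the 10 members was -1.16 and -1.29, beside -0.27 and -0.18 over all tested genes. Asking for a difference beyond 2-fold (glmTreat), 1 member was called higher and 4 lower with control, and 0 higher and 3 lower with EXACT1, against 37.8% and 38.0% of genes in either direction. Leaving out the outlying library, 1 was called higher and 7 lower with control, and 2 higher and 7 lower with EXACT1, against 70.1% and 72.5% of genes.

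DNMT1 and UHRF1, the pair that maintains methylation through cell division, were both lower in HepG2. DNMT1 (chr19:10133345-10231286, minus strand) had 73.6, 76.8 and 80.6 CPM in the HepG2 control libraries and 61.3, 70.0 and 79.3 in HepG2 EXACT1. In SH-SY5Y it had 198, 199 and 225 CPM with control and 206, 226 and 242 with EXACT1. No HepG2 library reached any SH-SY5Y library. The log2 fold change was -1.44 (SE 0.19, edgeR adjusted p = 0.00097) with control and -1.70 (SE 0.24, adjusted p = 0.0013) with EXACT1, or 2.72-fold and 3.25-fold. It was -1.44 and -1.57 without the outlying libraries. DNMT1 shares exonic bases on the same strand with S1PR2, a sphingosine 1-phosphate receptor gene counted at 172 to 1933 per library, and how reads in the shared bases were split is uncertain.

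UHRF1 (chr19:4903080-4962154, plus strand) differed more than DNMT1 in its fitted fold change. HepG2 libraries had 22.7, 25.4 and 27.2 CPM with control and 6.64, 24.2 and 29.7 with EXACT1, the low value being the outlying replicate 1. SH-SY5Y libraries had 102, 59.0 and 112 CPM with control and 107, 119 and 121 with EXACT1, 59.0 being the outlying replicate 2. The ranges of the lines did not overlap. UHRF1 was 3.65-fold lower in HepG2 with control (log2 fold change -1.87, SE 0.30, edgeR adjusted p = 0.0025) and 5.72-fold lower with EXACT1 (-2.52, SE 0.59, adjusted p = 0.011). Without the outlying library both runs gave -2.08. No test was made of UHRF1 against DNMT1.

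Genes of DNA replication, among which DNMT1 and UHRF1 act, were lower in HepG2 as well. Of 32 listed replication genes 25 were called lower and 0 higher with control (median -1.10), and 22 lower and 0 higher with EXACT1 (median -1.21). Of all tested genes 30.0% and 28.1% were called lower in these runs. Both runs gave 28 lower and 1 higher when the outlying library was left out. There 70.1% and 72.5% of all tested genes were called in either direction. The summed level of the replication genes was 1620 to 1932 CPM in HepG2 and 3547 to 4688 in SH-SY5Y. E2F2, an activating member of the E2F family, averaged 5.56 CPM in HepG2 and 45.3 in SH-SY5Y (log2 fold change -3.18 with EXACT1, edgeR adjusted p = 0.00016, and -3.15 without the outlying library), and MCM6, a subunit of the replicative helicase, 25.3 and 202 CPM (-3.13, adjusted p = 0.00016, and -3.01 without it). POLA2, of the primase complex, averaged 7.80 and 51.3 CPM (-3.08 with control, adjusted p = 0.00037, and -2.79 without the outlying library). The part of cell cycling in the DNMT1 and UHRF1 differences was not tested. In bulk RNA, fewer expressing cells and less RNA per cell cannot be told apart.

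Of the de novo enzymes, DNMT3A was lower in HepG2 and DNMT3B was not called. DNMT3A (chr2:25227855-25342590, minus strand) had 46.4, 41.7 and 43.3 CPM in HepG2 control and 48.0, 41.3 and 44.1 in HepG2 EXACT1, an even level that includes the outlying library. SH-SY5Y had 126, 88.7 and 140 CPM with control and 139, 143 and 144 with EXACT1, and no library of the lines overlapped. The log2 fold change was -1.45 (SE 0.25, edgeR adjusted p = 0.0028) with control and -1.71 (SE 0.20, adjusted p = 0.00068) with EXACT1, the latter the lowest adjusted p among the members in that run. The values were -1.59 and -1.72 with the outlying libraries dropped.

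DNMT3B (chr20:32762385-32809356, plus strand) was the methyltransferase of lowest level per length in both lines. HepG2 libraries had 13.1, 13.0 and 15.1 CPM with control and 5.89, 12.1 and 15.9 with EXACT1, and SH-SY5Y libraries 10.8, 6.94 and 11.7 with control and 12.5, 11.6 and 10.4 with EXACT1. The control ranges did not overlap and the EXACT1 ranges did. Its log2 fold change was 0.47 (SE 0.29, edgeR adjusted p = 0.21, 95% interval -0.21 to 1.16) with control and -0.04 (SE 0.42, adjusted p = 0.95, interval -1.06 to 0.98) with EXACT1. Without the outlying libraries both values were 0.30 (adjusted p = 0.096 and 0.14). Scaled by library totals in place of TMM, the control value was -0.21.

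**Figure D2:**
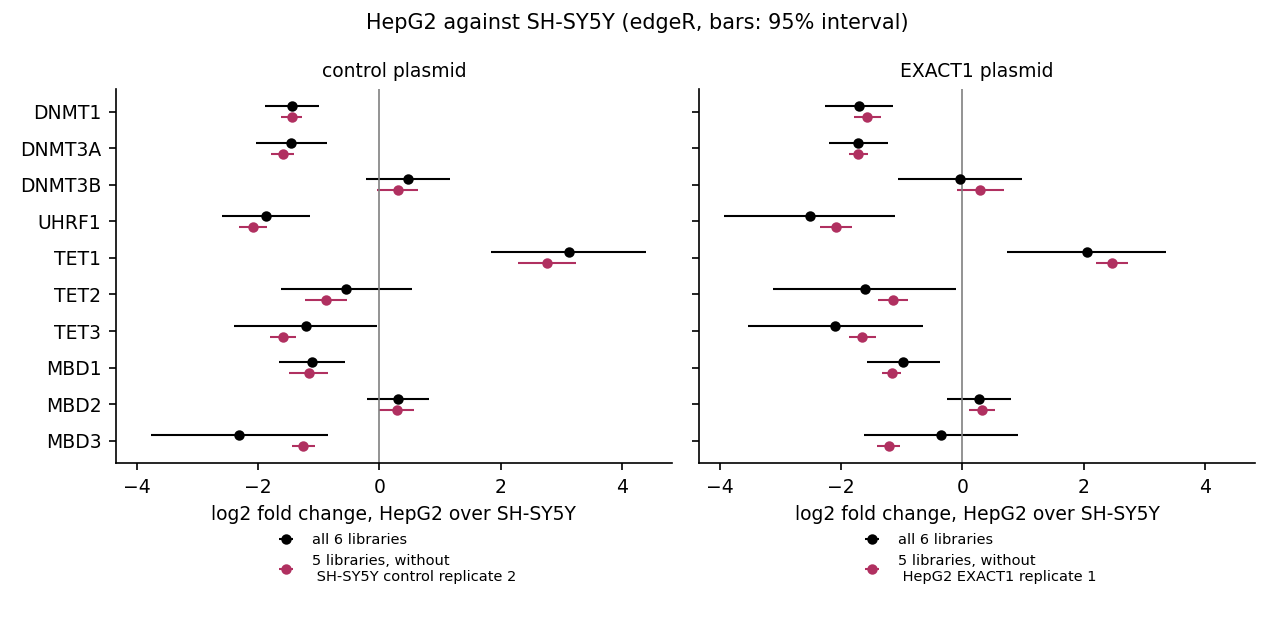
Log2 fold change of HepG2 over SH-SY5Y for the 10 genes with each plasmid (edgeR), bars showing the 95% interval; black uses all 6 libraries and red leaves out the outlying one. TET1 lies right of 0 in all 4 fits, and the red intervals are the narrower; MBD3 moves most, from -2.31 to -1.25 with control and from -0.35 to -1.22 with EXACT1.

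Among the erasers the lines differed in which paralog led. TET1 (chr10:68560656-68694482, plus strand) had 77.5, 80.7 and 74.8 CPM in HepG2 control and 21.7, 78.3 and 77.9 in HepG2 EXACT1. In SH-SY5Y it had 8.83, 3.30 and 14.3 CPM with control and 16.1, 12.9 and 13.9 with EXACT1. Even the outlying HepG2 library, with 21.7, exceeded the highest SH-SY5Y value. TET1 was 8.72-fold higher in HepG2 with control (log2 fold change 3.12, SE 0.53, edgeR adjusted p = 0.0032) and 4.15-fold higher with EXACT1 (2.05, SE 0.55, adjusted p = 0.019). Without the outlying library these were 2.76 and 2.47. In the EXACT1 run the call was lost when any 1 of the other 5 libraries was left out (adjusted p = 0.056 to 0.076), and with library totals as the scale (log2 fold change 1.21, adjusted p = 0.12).

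TET3 (chr2:73986404-74108176, plus strand) lay the other way. HepG2 libraries had 21.3, 23.1 and 22.1 CPM with control and 5.21, 23.1 and 23.0 with EXACT1, and SH-SY5Y libraries 61.5, 18.5 and 72.6 with control and 76.6, 66.3 and 77.2 with EXACT1. The low value in each line came from its outlying library, and 18.5 placed SH-SY5Y control replicate 2 below all HepG2 control libraries. With control the log2 fold change was -1.21 (SE 0.49, edgeR adjusted p = 0.077, not called), and -1.58 (adjusted p = 1.1e-05) without that library. With EXACT1 it was -2.10 (SE 0.60, adjusted p = 0.025), and -1.65 (adjusted p = 5.6e-06) without HepG2 EXACT1 replicate 1. The EXACT1 call was lost when any 1 of the 3 SH-SY5Y EXACT1 libraries was left out (adjusted p = 0.061 to 0.071).

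TET2 (chr4:105145875-105279816, plus strand) had the lowest level per length of the family in HepG2. It had 13.7, 13.9 and 12.6 CPM in HepG2 control and 2.48, 12.9 and 12.3 in HepG2 EXACT1, against 21.3, 8.16 and 28.4 in SH-SY5Y control and 28.7, 26.4 and 29.8 in SH-SY5Y EXACT1. The outlying libraries again held the lowest value of each line. TET2 was not called in either run (log2 fold change -0.54, edgeR adjusted p = 0.35 with control; -1.61, adjusted p = 0.071 with EXACT1). Without the outlying library it was called lower in HepG2 in both (-0.88 and -1.15).

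Among the readers, MBD1 was lower in HepG2, MBD2 was not called with all 6 libraries, and the MBD3 fold change varied with the outlying library. MBD1 (chr18:50266882-50281774, minus strand), a transcriptional repressor, had 28.8, 30.0 and 22.6 CPM in HepG2 control and 43.5, 27.2 and 26.9 in HepG2 EXACT1. SH-SY5Y had 61.9, 52.2 and 60.6 CPM with control and 62.1, 60.0 and 62.2 with EXACT1, above every HepG2 library. The log2 fold change was -1.12 (SE 0.23, edgeR adjusted p = 0.0061) with control and -0.97 (SE 0.25, adjusted p = 0.016) with EXACT1, where the call was lost when any 1 library other than HepG2 EXACT1 replicate 1 was left out (adjusted p = 0.051 to 0.068). Both runs gave -1.17 with the outlying library dropped.

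MBD2 (chr18:54151601-54224788, minus strand), which recruits NuRD to methylated DNA, had the narrowest range over the 12 libraries relative to its level. All HepG2 libraries lay between 27.2 and 33.5 CPM and all SH-SY5Y libraries between 23.3 and 25.8, the outlying libraries included, so the lines did not overlap. Its log2 fold change was 0.31 (SE 0.22, edgeR adjusted p = 0.27, 95% interval -0.21 to 0.82) with control and 0.28 (SE 0.22, adjusted p = 0.33, interval -0.25 to 0.80) with EXACT1. Once the outlying library was dropped it was called with EXACT1 (0.33) and not with control (0.29). With library totals as the scale it lay at -0.36 and -0.62, lower in HepG2.

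MBD3 (chr19:1573596-1592801, minus strand) had 54.1, 57.9 and 57.1 CPM in HepG2 control and 228, 60.2 and 57.0 in HepG2 EXACT1. SH-SY5Y had 141, 561 and 128 CPM with control and 126, 143 and 145 with EXACT1. The 10 ordinary libraries thus lay at 54.1 to 60.2 in HepG2 and 126 to 145 in SH-SY5Y, and both outlying libraries far above their own line. The fitted log2 fold change was -2.31 (SE 0.61, edgeR adjusted p = 0.018) with control and -0.35 (SE 0.53, adjusted p = 0.60) with EXACT1. Without the outlying library the runs gave -1.25 and -1.22 (adjusted p = 2.0e-05 and 1.2e-05). The control call with all 6 libraries was lost when any 1 HepG2 control library was left out (adjusted p = 0.061 to 0.064). Exons of MBD3 overlap AC005943.1 on the same strand, counted at 0 to 50 per library.

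The makeup of each family was then compared as the share of each paralog in the family's summed level per length, a measure that library scaling does not touch. TET1 made up 76.8% ± 1.7 (SD, n = 6) of the TET level in HepG2 and 15.8% ± 1.6 in SH-SY5Y, with ranges of 75.8% to 80.3% and 13.1% to 17.9%. TET3 made up 16.3% ± 1.0 and 65.3% ± 2.0, and TET2 6.88% ± 0.88 and 18.9% ± 1.1. The dominant TET transcript was thus TET1 in all 6 HepG2 libraries and TET3 in all 6 SH-SY5Y libraries, the outlying ones included. Each of the 3 TET shares differed between lines (exact two-sided permutation test of 6 against 6, p = 0.002165, the smallest that test can give, Benjamini-Hochberg adjusted p = 0.0039 over 9 shares).

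In the DNMT family DNMT1 was the largest share in both lines, at 54.1% ± 0.9 in HepG2 and 62.8% ± 3.5 in SH-SY5Y (adjusted p = 0.0039, exact permutation). DNMT3B made up 19.2% ± 4.1 in HepG2 and 6.53% ± 0.91 in SH-SY5Y (adjusted p = 0.0039, exact permutation), and DNMT3A 26.7% ± 4.1 and 30.6% ± 2.7 (adjusted p = 0.10). Within the MBD genes, MBD2 made up 28.6% ± 7.9 in HepG2 and 12.4% ± 3.8 in SH-SY5Y (adjusted p = 0.019, exact permutation). MBD3 made up 48.6% ± 11.4 and 61.4% ± 12.1 (adjusted p = 0.11), and MBD1 22.8% ± 3.6 and 26.2% ± 8.4 (adjusted p = 0.41). The shares of a family make up a whole, so the 9 are not independent of each other. In all, 6 of 9 shares passed. Without both outlying libraries all 9 did (p = 0.007937 each, the smallest for 5 against 5 in the exact test), MBD3 then at 44.0% ± 2.7 and 56.5% ± 1.6 and DNMT3A at 25.2% ± 1.4 and 31.7% ± 0.7. Within 1 plasmid, 3 libraries against 3 cannot give p below 0.1 in the exact test. There MBD1's share was 1.38 points higher in HepG2 with control and 8.22 points lower with EXACT1, while the 8 other differences kept their sign.

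**Figure D3:**
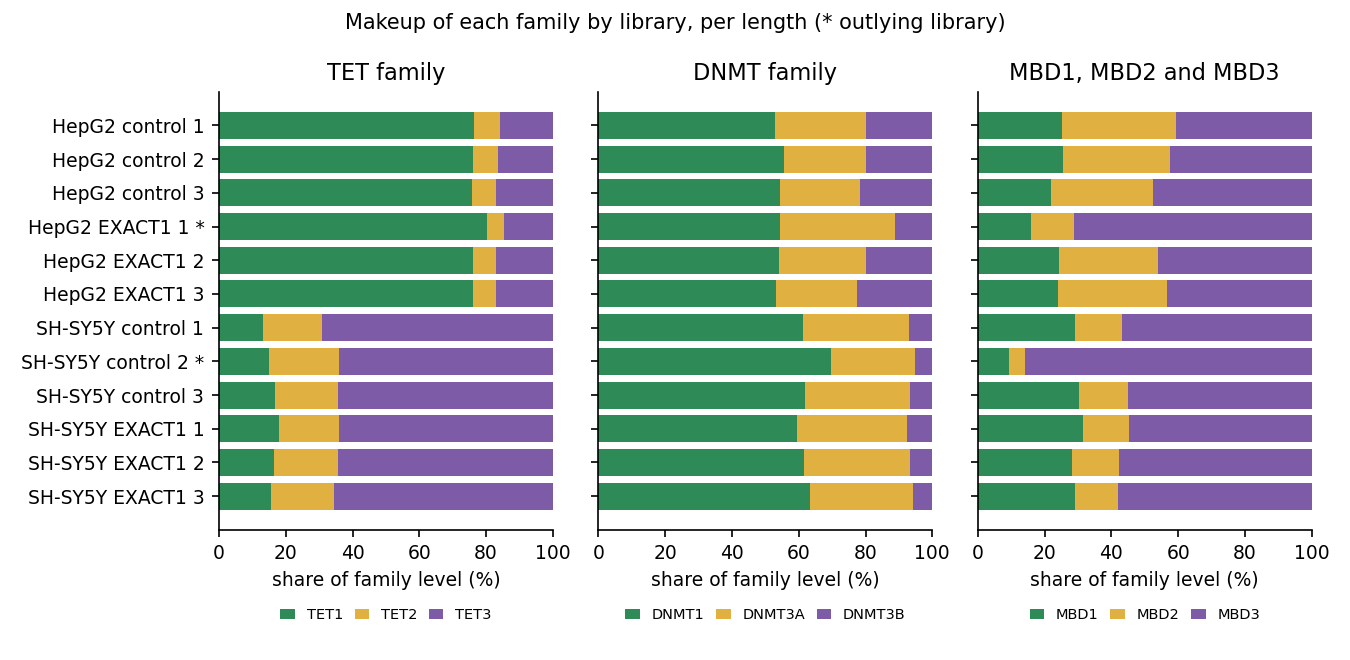
Share (%) of each paralog in its family's summed level per length, 1 bar per library, with the 2 outlying libraries starred. TET1 fills 75.8% to 80.3% of every HepG2 bar and 13.1% to 17.9% of every SH-SY5Y bar, and MBD3 is widest in the starred bars (71.3% and 85.9%).

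Partners and related genes of the pathway were taken from lists. Each count below can be read against the percentages of all genes given above. A gene nearly absent from either line passes the filter on low counts through the other and so had to differ. Such genes are included in the counts, and in the medians where given. Of 10 tested methyltransferase partners, 3 were called higher in HepG2 and 4 lower with control (median -0.84), and 2 and 4 with EXACT1 (median -0.49). CDCA7L, a paralog of the HELLS activator CDCA7, averaged 7.52 CPM over the 6 libraries of HepG2 and 39.6 over those of SH-SY5Y (log2 fold change -2.24, edgeR adjusted p = 0.00057 with control, and -2.37 without the outlying library). USP7, the ubiquitin protease that binds DNMT1 and UHRF1, was higher in HepG2, at 294 against 121 CPM (1.49, adjusted p = 0.0061, and 1.27 without that library), the outlying libraries being lowest in each line (192 and 67.8 CPM). LIG1, the replicative DNA ligase that recruits UHRF1, was lower (37.0 against 80.5 CPM, -1.48, adjusted p = 0.0077, and -1.12 without it). The counts were 3 and 5 with control and 3 and 6 with EXACT1 when the outlying library was left out.

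Of 21 genes of demethylation and base excision repair, 3 were called higher and 5 lower with control (median -0.39), and 3 and 4 with EXACT1 (median -0.02). They were 5 and 8, and 7 and 8, when the outlying library was left out (medians 0.11 and 0.04). TDG, the glycosylase that removes the oxidised bases that TET enzymes make, averaged 14.1 CPM in HepG2 and 62.7 in SH-SY5Y, with 4.13 and 23.8 in the outlying libraries (log2 fold change -2.58 with EXACT1, edgeR adjusted p = 0.0089, and -2.16 without the outlying library). IDH1, a source of the TET cosubstrate 2-oxoglutarate, was higher in HepG2, at 631 against 67.8 CPM (3.34 with control, adjusted p = 8.1e-05, and 3.24 without the outlying library). GADD45B, a stress gene linked to demethylation, was also higher, at 36.0 against 0.290 CPM (6.25, adjusted p = 0.00052, and 6.23 without it).

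In the methyl donor cycle, which supplies S-adenosylmethionine, more genes were called in favour of HepG2 than against it. Of 19 tested genes 8 were called higher and 3 lower with control (median 0.87), and 9 and 3 with EXACT1 (median 1.47). Both runs gave 13 higher and 5 lower without the outlying library. MAT1A, the liver form of methionine adenosyltransferase, had 90.0 to 134 CPM in HepG2 and 0.080 to 0.232 in SH-SY5Y (log2 fold change 9.77 with control, also 9.77 without the outlying library). BHMT and BHMT2, which remethylate homocysteine, averaged 7.20 and 19.6 CPM in HepG2 against 0.092 and 0.022 in SH-SY5Y. BHMT2 was at 0 counts in all 3 SH-SY5Y EXACT1 libraries. Per SH-SY5Y library, MAT1A had 7 to 23 counts, BHMT 0 to 21 and BHMT2 0 to 9. BHMT and BHMT2 in both runs, and MAT1A with control, passed the filter on low counts through HepG2 and so had to differ. These genes are in the counts and medians above. All 19 tested hepatocyte markers were called higher in HepG2 in both runs, and their part in the methyl donor calls was not tested.

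Of 13 NuRD genes, the complex that holds MBD2 or MBD3, 2 were called higher and 7 lower in HepG2 with control (median -0.68), and 2 and 8 with EXACT1 (median -1.22), or 2 and 9, and 2 and 10, without the outlying library. CHD5, the remodeller known from neurons, was at 0 to 20 counts in HepG2 libraries and 516 to 922 in SH-SY5Y (log2 fold change -5.55 with EXACT1, and -5.49 without the outlying library). It passed the filter on low counts through SH-SY5Y and so had to differ. CHD3 averaged 24.1 and 145 CPM (-2.88 with control, edgeR adjusted p = 0.00025, and -2.65 without the outlying library), and MTA2, a histone tail binding subunit, 54.0 and 169 CPM (-1.77, adjusted p = 0.00049, and -1.68 without it).

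Of 19 chromatin partners 0 were called higher and 10 lower in both runs (medians -0.90 and -0.89), and 16 lower in both without the outlying library. NSD1, the histone H3 lysine 36 methyltransferase whose mark DNMT3A reads, was nearly absent from HepG2, with 0, 12 and 15 counts in the control and 7, 14 and 24 in the EXACT1 libraries against 3562 to 12201 in SH-SY5Y. NSD1 passed the filter on low counts through SH-SY5Y and so had to differ. Its log2 fold change was -9.16 with control and -8.65 with EXACT1, or -9.40 and -9.38 without the outlying libraries. CBX1, a heterochromatin protein, averaged 115 CPM in HepG2 and 452 in SH-SY5Y (-1.91 with control, adjusted p = 0.00066, and -2.03 without the outlying library).

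Of 10 other methyl-CpG readers 3 were called higher and 2 lower with control (median 0.64), and 1 and 2 with EXACT1 (median 0.27), or 6 and 2 in both runs without the outlying library. ZBTB38, a zinc finger reader of methylated DNA, had 97.9, 90.5 and 85.5 CPM in HepG2 control and 12.9, 87.8 and 93.0 in HepG2 EXACT1, against 25.8, 7.45 and 36.1 in SH-SY5Y control and 31.2, 30.6 and 32.3 in SH-SY5Y EXACT1. It was called with control (log2 fold change 1.97, edgeR adjusted p = 0.022), a call lost when any 1 HepG2 control library or SH-SY5Y control replicate 1 was left out (adjusted p = 0.052 to 0.058), and not with EXACT1 (1.05, adjusted p = 0.25). Dropping the outlying library gave 1.58 and 1.55, called in both runs. ATF7IP, the SETDB1 partner that binds MBD1, averaged 11.2 and 62.7 CPM (-2.28 with control, adjusted p = 0.0048, and -2.58 without the outlying library). Of 8 CXXC genes, whose domain binds unmethylated CpG, 0 were called higher and 3 lower with control (median -0.27), and 0 and 2 with EXACT1 (median -0.55), or 1 and 3, and 1 and 4, without the outlying library. CXXC4 is the lowest value in each median, also at its bound given next. CXXC4, the neighbour from which TET2 is thought to have lost its CXXC domain, had 0 counts in all 6 HepG2 libraries and 481 to 1688 in SH-SY5Y. Set against a floor of 3 counts per library, it was at least 258-fold lower in HepG2.

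Germline genes with CpG promoters are a class that methylation is known to keep silent in somatic cells. Only 4 of 22 passed the filter on low counts with control, 1 called higher and 3 lower in HepG2, and 5 with EXACT1, 1 higher and 4 lower. When the outlying library was left out 7 and 8 passed, with 1 called higher and 5 and 6 lower. Having passed through the line where they were high, these genes had to differ, and no median is given. PIWIL1 had 0 counts in all 6 HepG2 libraries and 370 to 1329 in SH-SY5Y, at least 192-fold lower against the same floor. TEX15 averaged 0.269 and 22.9 CPM. MAGEA3 averaged 0.044 and 47.3 CPM and has near-identical copies, so the split of its counts is uncertain. Of the 22 genes, 15 had 0 counts in all HepG2 libraries and 6 in all SH-SY5Y libraries.

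EXACT1 was compared with control within each line, which asks whether the miRNA plasmid changes these transcripts. No member was called in either line. In HepG2 0 of 17139 tested genes were called by edgeR (0.0%), 164 having an unadjusted p under 0.05, while DESeq2 called 10 and limma voom with sample weights 2, no member among them. Log2 fold changes of the members, EXACT1 over control, ran from -0.56 (TET2, SE 0.60) to 0.91 (MBD3, SE 0.53), with adjusted p = 0.79 to 0.92. The 3 TET genes and UHRF1 had values of -0.34 to -0.56, each with replicate 1 low and replicates 2 and 3 among or beside the control values listed above. Leaving out HepG2 EXACT1 replicate 1, all 10 values lay between -0.10 and 0.09, and MBD3 was 0.04 (95% interval -0.12 to 0.20).

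In SH-SY5Y 0 of 19853 genes were called by edgeR (0.0%), 200 having an unadjusted p under 0.05, while DESeq2 called 9 and limma voom 1, again no member. Members ran from -1.04 (MBD3, SE 0.60) to 0.69 (TET1, SE 0.49), with adjusted p = 0.80 to 0.92. Leaving out SH-SY5Y control replicate 2, they lay between -0.08 (MBD2) and 0.30 (TET1, 95% interval -0.15 to 0.75). With all libraries the intervals were wide and reached past a 2-fold change for the TET genes, for TET1 from -0.48 to 1.85 in SH-SY5Y and from -1.64 to 0.80 in HepG2. None of the 9 other pathway lists had a called gene in either line.

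**Figure D4:**
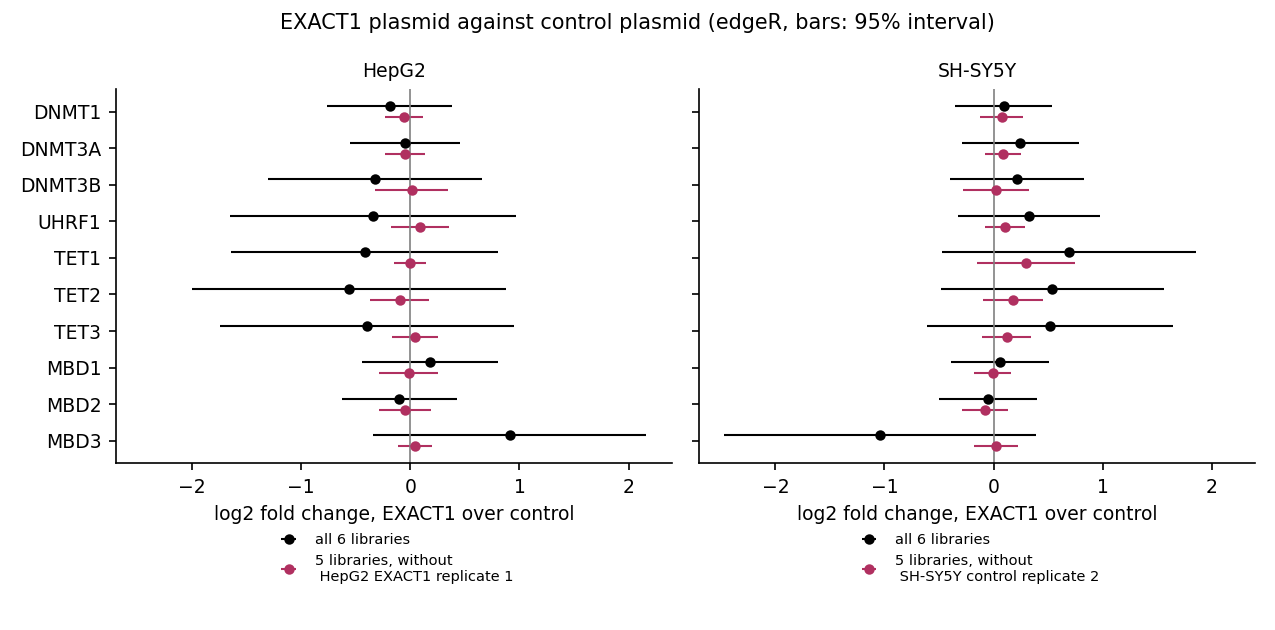
Log2 fold change of EXACT1 over control in each line (edgeR, bars 95% interval), black with all 6 libraries and red without the outlying one. The black points scatter from -1.04 to 0.91 and the red ones from -0.10 to 0.30.

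The difference of the EXACT1 effect between lines, tested as an interaction over all 12 libraries, was called for 0 of 22009 genes by edgeR (0.0%), 1907 having an unadjusted p under 0.05, while DESeq2 called 24 and limma voom 1. MBD3 had the largest member value, 2.03 (SE 0.89, adjusted p = 0.49, unadjusted p = 0.043), and without both outlying libraries it was 0.02 (SE 0.11). TET1, TET2 and TET3 had -1.09, -1.08 and -0.90 (adjusted p = 0.57 to 0.60), and -0.31, -0.28 and -0.07 without these libraries. This interaction is also the test of whether a line difference depended on the plasmid, as for the MBD3 values of -2.31 and -0.35 given above. It shares its libraries with all 4 comparisons before it.

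The 2 outlying libraries come from different lines and different plasmids, and their largest deviations in the members ran alike. Set against the median CPM of the line's other 5 libraries, MBD3 was 3.99-fold higher in HepG2 EXACT1 replicate 1 and 3.97-fold higher in SH-SY5Y control replicate 2. TET1 stood at 0.279 and 0.238 of that median, TET2 at 0.192 and 0.287, and TET3 at 0.226 and 0.255. UHRF1 stood at 0.261 and 0.527 and DNMT3B at 0.448 and 0.596, whereas DNMT1 (0.799 and 0.886) and MBD2 (0.961 and 0.913) were close to their line in both. DNMT3A (1.11 and 0.631) and MBD1 (1.60 and 0.843) lay on opposite sides of their lines. These libraries are also the ones with the raised ribosomal protein share, and the part of library or RNA quality in the member values was not tested.

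**Figure D5:**
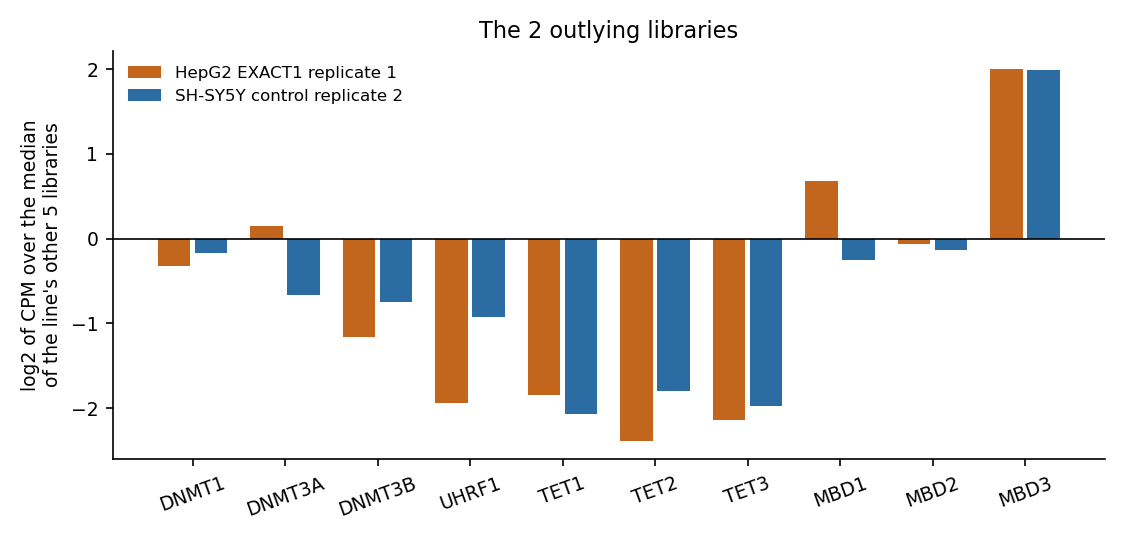
Log2 ratio of each gene's CPM in the 2 outlying libraries to the median of the other 5 libraries of the line. MBD3 lies at 2.00 and 1.99, and the 3 TET genes between -1.80 and -2.38, in both libraries.

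Finally, the genes whose pattern over the 12 libraries was most like each member were taken as the 2 with the smallest root mean square distance of centred log2 CPM among 12050 genes with a mean of at least 5 CPM. The distance is a description, and genes near a member follow the same line difference and the same outlying libraries. MBD3 had the closest neighbours, GNB2 (distance 0.043), a G protein subunit gene, and FARSA (0.068), a phenylalanine tRNA synthetase gene. DNMT1 was nearest to ZBED3 (0.077) and THEM4 (0.090), MBD2 to AKAP8 (0.080) and PSMA3 (0.085), and DNMT3B to MICU2 (0.093) and ZEB1-AS1 (0.094). TET2 was nearest to HEATR5B (0.105) and ATRX (0.110), a chromatin remodeller gene, and TET3 to WDR3 (0.115) and CHAMP1 (0.116). The remaining members were less closely matched: DNMT3A by IPO9 and LSG1 (both 0.128), UHRF1 by WASF1 (0.130) and PABIR2 (0.135), MBD1 by CUX1 (0.137) and VPS26B (0.141), and TET1 by NR3C1 (0.149), the glucocorticoid receptor gene, and EHHADH (0.168), a peroxisomal fatty acid oxidation gene.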

How the data were processed

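Polyadenylated RNA of transfected HepG2 and SH-SY5Y cells was sequenced after stranded library preparation, per the labels. The authors deposited raw counts, whole numbers for each Ensembl gene and library, in 1 matrix. The submitters' processing notes name cutadapt, HISAT2, StringTie, edgeR, limma and build GRCh38. Their versions, the annotation and whether counting used strand: not given in the sources used here. Groups and replicate numbers came from sample titles. The labels do not say if replicates were separate cultures, so p-values cover only the spread among these libraries, which may be technical. HEK293A was left out because its values do not match their row IDs: of 6574 genes above 500 counts in each of the 12 libraries used, 2555 (38.9%) were at 0 in all 6 HEK293A libraries.

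IDs matched symbols for 60401 of 60612 rows. Counts were tested with edgeR 4.0.16 (R 4.3.3): filterByExpr, TMM, robust quasi-likelihood F test, two-sided, Benjamini-Hochberg over all tested genes, threshold 0.05. The line comparisons used the 6 libraries of 1 plasmid, the plasmid comparisons the 6 of 1 line, and the interaction all 12. CPM use TMM-scaled library sizes over the 12 libraries, and lengths are the union of exons in the annotation (build GRCh38). Promoters and CpG counts use RefSeq windows. Shares were compared by exact permutation. The tests were also tried on simulated counts. Alternatives were DESeq2 1.42.0, limma 3.58.1 (voom with sample weights), other scalings and filters, a replicate block, all 12 libraries in 1 model, and omission of single libraries. Library totals as the scale, and omission of both outlying libraries, were added after seeing the data.

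The members, lists, tests and alternatives were chosen with earlier results of these data known. Named genes were all 10 members and, per pathway list and line comparison, up to 3 called genes of largest absolute log2 fold change with a mean of at least 1 CPM and groups that do not overlap; the text gives examples from these.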

Additional observations from a re-analysis of the deposited data

Results flagged for a closer look

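Shares of a paralog in its family were looked at for a library far from the other 5 of its line, by the gap to the nearest library over the whole range (Dixon's test for 6 libraries). Shares of a family make up a whole within a library, so they are not independent and no number expected by chance is given. At a level of about 1 in 20 for a single combination, 11 of 18 combinations of gene and line held a library so flagged. In HepG2 it was EXACT1 replicate 1 each time, with TET1 at 80.3% of the TET level, TET2 at 5.17%, DNMT3A at 34.6% of the DNMT level, DNMT3B at 11.0%, MBD2 at 12.8% of the MBD level and MBD3 at 71.3%. In SH-SY5Y it was control replicate 2 for DNMT3A (25.3%), MBD1 (9.31%), MBD2 (4.81%) and MBD3 (85.9%), and control replicate 1 for TET3 (69.1%, against 63.9% to 65.6% in the other 5). MBD3 had the highest and MBD2 the lowest share of the line in both outlying libraries. The DNMT3A share deviated upwards in HepG2 EXACT1 replicate 1 and downwards in SH-SY5Y control replicate 2. A share also falls when a paralog rises. In CPM, MBD2 stood at 0.961 and 0.913 of the median of its line's other 5 libraries, and MBD3 at 3.99 and 3.97. The 2 outlying libraries are those with the raised ribosomal protein share, whose part in the shares was not tested.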

How the results depend on the processing

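For single genes and shares, 964 values kept direction and call under another tool, scaling, filter or set of libraries, 43 lost the call, 15 gained it and 20 changed sign. Leaving out single libraries, these numbers were 722, 41, 9 and 14. In the line comparisons, library totals in place of TMM turned DNMT3B (-0.213) and MBD2 (-0.3563) with control and MBD2 (-0.6249) and MBD6 (-0.1277) with EXACT1, as this scale moved the median of all tested genes from -0.27 to -0.91 and from -0.18 to -1.08. It left 1 member higher in HepG2 per length. DNMT3B with EXACT1 was 0.2977 by limma voom and ran from -0.4007 to 0.2974 with single libraries left out. Testing only genes of at least 5 CPM, fewer were tested and 6660 and 6320 were called, against 10526 and 10540. Leaving out single libraries gave 8631 to 14714 and 8386 to 15515 calls. For EXACT1 against control in HepG2, DESeq2 called 10 genes, limma voom 2, and single libraries left out 0 to 2. Members near 0 changed sign there: UHRF1 (0.0645), TET3 (0.0211) and MBD1 (-0.0327) by voom, DNMT3A by upper-quartile scaling (0.0154) and with all 12 libraries in 1 model (0.0211). With single libraries left out, DNMT3B ran from -0.6884 to 0.0105, UHRF1 from -0.7576 to 0.0883, TET3 from -0.6958 to 0.0435 and MBD1 from -0.017 to 0.2624. In SH-SY5Y DESeq2 called 9, voom 1 and single libraries left out 0 to 1. MBD1 was -0.024 by voom and MBD2 0.0874 by library totals. Left-out ranges were -0.0069 to 0.135 (MBD1), -0.0821 to 0.0089 (MBD2) and -1.383 to 0.0212 (MBD3). For the interaction DESeq2 called 24, voom 1 and the fit without both outlying libraries 2. MBD1 was -0.0089 by voom, -0.1253 by library totals and -0.0086 without both libraries, with a left-out range of -0.0868 to 0.2952. MBD2 was 0.016 by voom, 0.0254 by upper quartile, 0.0552 at 5 CPM and 0.0335 without both, with a left-out range of -0.1018 to 0.0467. Family shares passed 0 of 9 times with control libraries alone and 0 with EXACT1 libraries alone, where the test cannot pass, and MBD1's share difference was 1.379 points with control. Leaving out single libraries, 6 to 8 shares passed. The cause of these changes was not tested.

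Correlations of same-numbered deviations ran from -0.6916 to 0.6394. Both ends came from HepG2 EXACT1 against SH-SY5Y control, the groups with the outlying libraries. EXACT1 against control gave 0.0133, -0.0545 and 0.0765 in HepG2 and 0.3765, 0.1642 and 0.0189 in SH-SY5Y. Whether replicate numbers pair the libraries was therefore not settled. With the replicate number as a block, 8725 and 7809 genes were called in the line comparisons with control and EXACT1 and 0 in both plasmid comparisons and the interaction. Under that block 1 member was called higher and 5 lower with control, and 0 and 4 with EXACT1. With 3 libraries a group and intervals widened by the outlying libraries, small differences were not detectable.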
